A study of Mus musculus with 21 samples.

Results

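Lcn2, Ces1d, Ephx1 and Cyp2s1 are 4 of the 7117 mouse genes that a probe of this array series names singly. They were chosen from the measured values, because they were among the genes in which the testes of Spo11 knockout mice and of 15 day old mice differed most. Each gene was read by 1 probe, and all 4 passed the filter on missing values that left 4465 genes for testing. The probe of Lcn2 (3066609) and that of Ephx1 (3063751) had a value on all 21 arrays, the probe of Ces1d (3068785) on 20 and the probe of Cyp2s1 (3059319) on 17. The genes lie on chromosome 2 (Lcn2), chromosome 8 (Ces1d), chromosome 1 (Ephx1) and chromosome 7 (Cyp2s1).

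Each array compared the total RNA of a pair of sources, and the value of a probe is the log2 ratio between them. Spo11 knockout whole testis was set against wild type whole testis on 4 arrays, and 15 day against adult whole testis, both wild type, on 4. Wild type whole ovary was set against wild type whole testis on 4 arrays. Whole testis, again wild type, was set against a commercial reference RNA (Universal mouse refence RNA (Stratagene)) on 4 arrays, and whole ovary against it on 5. The labels give no strain, no age of the knockout, of its control or of the ovaries, and no Spo11 allele, and they do not say whether arrays held separate animals. The spread between arrays may thus be technical, and the p-values below measure no more than that spread. In whole organs, fewer cells of a type and less RNA per cell cannot be told apart.

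The labels do not state which source is the numerator. Arrays of opposite channel order correlated positively within each comparison, with r between 0.471 and 0.925 across probes, so the values of a comparison already ran in one direction when deposited. The source named first is the likely numerator. This rests on germ cell genes. Of 4 tested spermatid markers, 3 were lower in ovary than in testis and higher in testis than in the reference under that reading, as were 5 of 6 spermatocyte markers; the other spermatocyte marker did not pass. The flagellar gene Tekt2, for example, was at -4.68 in ovary against testis, -4.69 in 15 day testis and -5.73 in the knockout, against 5.74 in testis over the reference. Oaz3, the remaining spermatid marker, has the opposite signs, at 0.79 in ovary against testis (not past the threshold without replicate 1, 2 or 4) and -2.20 in testis over the reference. No label states the direction, so it stays likely and not settled. If the sign were turned, each direction below would turn with it. No probe names Spo11, so the knockout was not checked on its targeted gene.

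Lcn2 encodes lipocalin 2, a small secreted protein that carries iron bound to siderophores. It is stored in the granules of neutrophils, belongs to the acute phase response, and is also known as a secretion of the uterus and epididymis. Ces1d is a carboxylesterase of the endoplasmic reticulum that hydrolyses triglycerides and other esters. Ephx1 is the microsomal epoxide hydrolase, which adds water to reactive epoxides, many of them made by cytochrome P450 enzymes. Cyp2s1 is such a P450 enzyme, mainly of epithelia, and is known to be induced through the aryl hydrocarbon receptor. In the mouse, spermatids have not yet formed at 15 days, and germ cells without Spo11 stop in meiotic prophase. Both testes thus lack late germ cells, but adult Leydig cells, the testosterone-producing cells between the tubules, are still maturing at 15 days.

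The RefSeq promoter windows, from 250 bases before to 50 bases after the start of transcription, are shown because the genes were selected for a shared pattern. They were found for 3 of the 4 genes on the assembly GRCm38.p6. All lie on the minus strand and are written 5′ to 3′ along the gene, with motif matches in capitals. The windows are chr2:32387690-32387989 for Lcn2, chr1:181017520-181017819 for Ephx1 and chr7:25816476-25816775 for Cyp2s1.
Lcn2: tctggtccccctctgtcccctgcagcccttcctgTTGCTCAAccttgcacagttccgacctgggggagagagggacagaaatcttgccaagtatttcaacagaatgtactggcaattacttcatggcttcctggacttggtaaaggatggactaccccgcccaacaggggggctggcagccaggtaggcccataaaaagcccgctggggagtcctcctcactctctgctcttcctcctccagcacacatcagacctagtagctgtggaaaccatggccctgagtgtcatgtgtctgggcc
Ephx1: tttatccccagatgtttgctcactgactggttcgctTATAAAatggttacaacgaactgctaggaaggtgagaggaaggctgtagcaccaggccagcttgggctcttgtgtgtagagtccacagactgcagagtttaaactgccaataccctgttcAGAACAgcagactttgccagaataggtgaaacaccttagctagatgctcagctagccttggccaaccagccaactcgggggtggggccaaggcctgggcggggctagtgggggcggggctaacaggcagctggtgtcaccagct
Cyp2s1: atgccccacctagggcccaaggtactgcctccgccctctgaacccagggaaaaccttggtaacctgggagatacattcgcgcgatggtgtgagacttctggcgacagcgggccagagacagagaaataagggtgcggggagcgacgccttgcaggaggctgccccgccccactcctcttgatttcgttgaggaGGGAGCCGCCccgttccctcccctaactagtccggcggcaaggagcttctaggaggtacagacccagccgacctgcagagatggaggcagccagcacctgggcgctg

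The capitals mark matches to 6 motifs that were searched on both strands. The Lcn2 window held 1 match to the C/EBP motif (TTNCNNAA), 216 bases before the start, and motifs of this kind were in 40.7% of the 32851 promoters of the same length. The Ephx1 window held a TATAAA match 214 bases before the start (motif in 13.6% of promoters). It also held the androgen receptor motif TGTTCT on the opposite strand, 94 bases before the start (19.0%). The Cyp2s1 window held a match to the NF-kB motif (GGGA and CC with any 4 bases between them) 57 bases before the start (20.7%). The antioxidant response element TGACNNNGC, in 12.4% of promoters, and the xenobiotic response element TNGCGTG, in 5.07%, had no match in these windows. No motif matched in more than 1 of the 3 windows. These matches describe letters in a window and say nothing about binding.

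In the testis comparisons that selected them, Lcn2, Ces1d and Ephx1 were higher in the knockout and lower at 15 days, and Cyp2s1 was the reverse. They are given as a description, with no test. Lcn2 in the knockout was at 3.40, 3.13, 3.24 and 3.17 on the 4 arrays, a mean of 3.24 ± 0.12 (SD, n = 4), or 9.42-fold above wild type. In 15 day testis it was at -3.96, -4.88, -4.30 and -4.13, a mean of -4.32 ± 0.40 (SD, n = 4), or 19.9-fold below adult testis. The 8 arrays lay on either side of 0, a separation that the choice of the gene favoured and that is no result. Among the 4465 genes, Lcn2 was the 4th highest in the knockout and the 9th lowest at 15 days.

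Ces1d in the knockout was at 2.67, 2.43, 2.84 and 2.13, a mean of 2.52 ± 0.31 (SD, n = 4), or 5.73-fold. At 15 days it was at -2.37, -2.52, -3.46 and -2.67, a mean of -2.76 ± 0.49 (SD, n = 4), or 6.75-fold lower. The arrays of these comparisons again lay on either side of 0, which the choice of the gene favoured. Ephx1 stood at 2.49, 2.04, 2.15 and 1.87 in the knockout, a mean of 2.14 ± 0.26 (SD, n = 4), or 4.40-fold. It stood at -2.72, -2.25, -2.46 and -2.41 at 15 days, a mean of -2.46 ± 0.20 (SD, n = 4), or 5.50-fold lower. For Ephx1 the size of the difference was nearly the same in both comparisons, whereas for Lcn2 the 15 day difference was the larger.

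Cyp2s1 had a value on 3 arrays of each of these comparisons. It was at -0.46, -0.92 and -0.54 in the knockout, a mean of -0.64 ± 0.25 (SD, n = 3), or 1.56-fold lower. At 15 days it was at 1.22, 1.23 and 1.72, a mean of 1.39 ± 0.29 (SD, n = 3), or 2.62-fold higher. The knockout difference of Cyp2s1 was small beside the others. Of all genes tested, 52.1% had a larger difference in the knockout in either direction, while 12.2% had a larger one at 15 days.

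**Figure D1:**
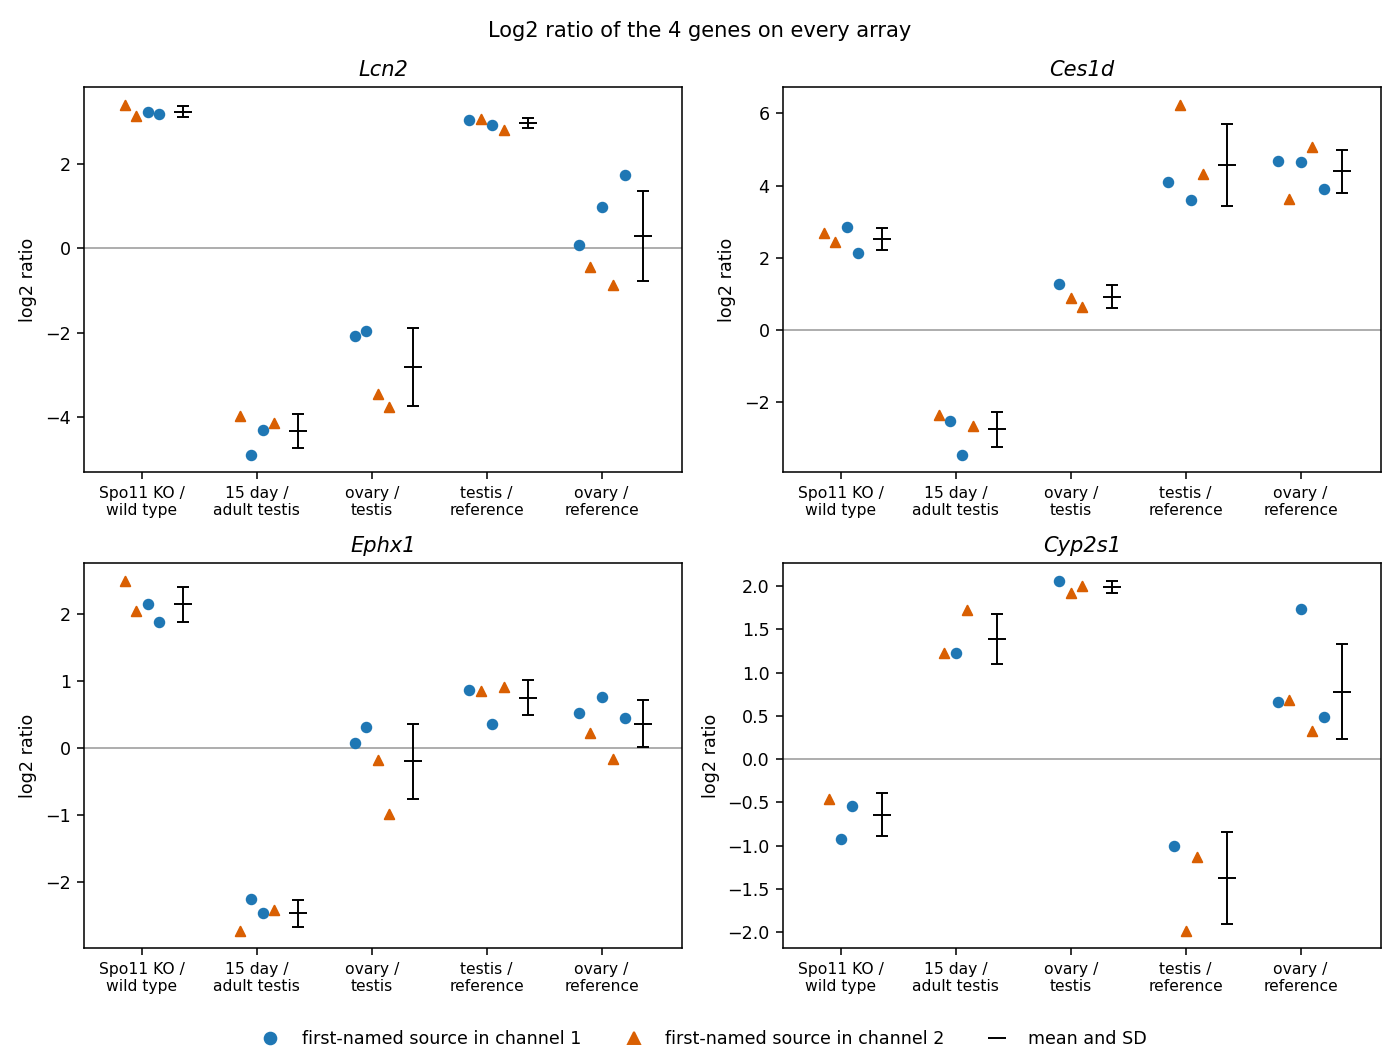
Log2 ratio (vertical axis) of Lcn2, Ces1d, Ephx1 and Cyp2s1 on every array with a value, by comparison (horizontal axis). Circles and triangles mark the channel that held the first-named source, and the bar is the mean with its SD. Lcn2 lies between 3.13 and 3.40 in the knockout and between -4.88 and -3.96 at 15 days, and its ovary arrays separate by channel.

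The place of the 4 genes in the order of knockout minus 15 day values shows how far the choice reached. Lcn2 stood first of 4465 genes at 7.55 and Ces1d followed at 5.27. Cyp17a1, an enzyme of androgen synthesis that was not chosen, came next at 4.83, and then Ephx1 at 4.60. They were followed by Trim62 at 4.33, which rests on 1 array at 15.75, and Cyp11a1, which makes the first intermediate of steroid synthesis, at 4.22. Cyp2s1 stood 10th from the other end, at -2.03, between Gmfb at -1.91 and Rbm33 at -2.05. Unlike these neighbours it was on opposite sides of 0 in the 2 comparisons.

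Opposite directions were rare. By limma's test with Benjamini-Hochberg adjustment, 57.2% of the 4465 genes passed the adjusted p threshold of 0.05 in the knockout and 46.1% at 15 days, and 1748 of the 4461 genes other than the selected 4 passed in both. Of these, 12 had opposite signs, 11 of them higher in the knockout and lower at 15 days. The 1 that was the reverse was Spice1, a centriole gene at -0.61 in the knockout and 0.76 at 15 days. Genes over 2 in the knockout and under -2 at 15 days were Lcn2, Ces1d, Ephx1 and Cyp11a1 (2.19 and -2.02). Bhmt, an enzyme of methionine synthesis, was close to them at 1.79 and -1.83. The presence of the selected genes among the largest values follows from their choice and is no result.

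**Figure D2:**
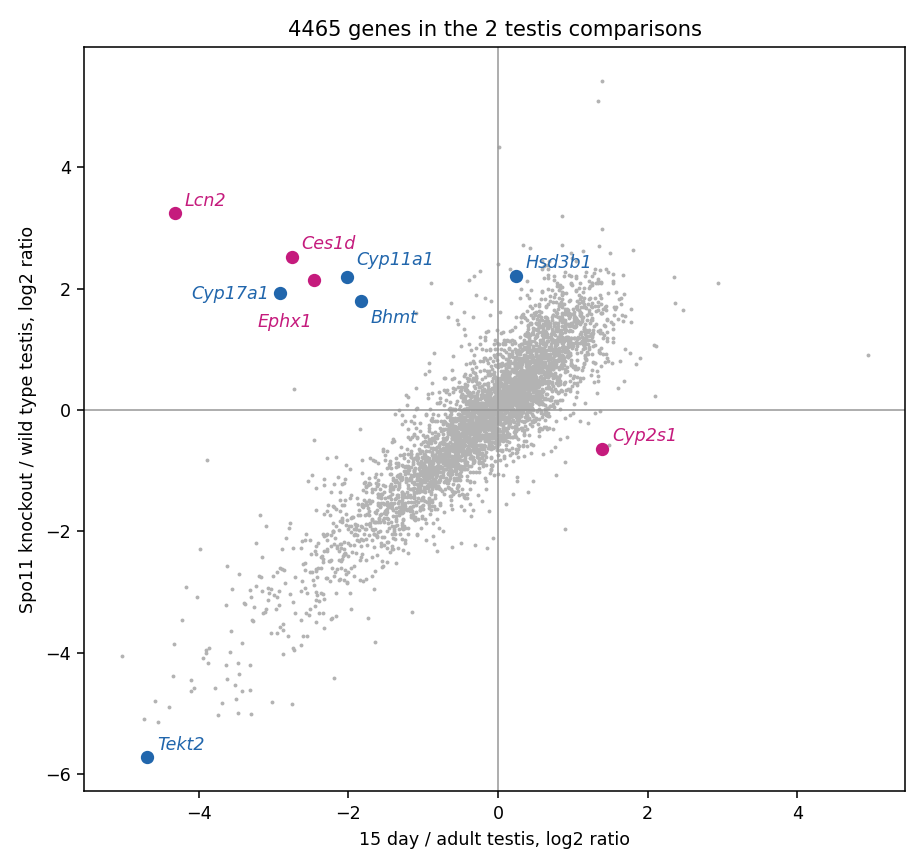
Fitted log2 ratios of 4465 genes (grey points) in 15 day against adult testis (horizontal axis) and in knockout against wild type testis (vertical axis). The selected genes are in magenta and 5 other named genes in blue. Lcn2 at -4.32 and 3.24 lies farthest into the upper left, near Ces1d, Ephx1, Cyp17a1, Cyp11a1 and Bhmt, and Cyp2s1 lies at the lower right.

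Markers of several cell types also moved in these comparisons, and their part in the results above was not tested. Among all 4465 genes, 1190 passed as higher and 1363 as lower in the knockout. At 15 days 803 passed as higher and 1254 as lower. Of 18 listed adult Leydig cell markers 7 had a probe and 5 were tested, and these 5 rose in the knockout (median 1.93, from 1.5 to 2.0 by array, against -0.04 for all genes). At 15 days 0 rose and 2 fell (median -0.34, from -0.51 to -0.29 by array, against -0.07). The 2 that fell were Cyp17a1 at -2.91 ± 0.35 and Cyp11a1 at -2.02 ± 0.36 (SE, n = 4 for each). Hsd3b1 at 0.24, Nr5a1 at 0.54 and Scarb1 at -0.34 did not pass. Hsd3b1 in the knockout, at 2.21, did not pass without knockout replicate 1, at 1.76 with an adjusted p of 0.0598 by limma. The other 2 had too few values for the test and differed from each other. Star, which brings cholesterol into mitochondria, was at 1.17 on 2 knockout arrays and -1.68 on 2 arrays at 15 days. Idh1, an isocitrate dehydrogenase, was at 0.45 on 2 knockout arrays and 0.14 on 4 arrays at 15 days, from -0.36 to 0.84.

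Every Sertoli cell, macrophage and peritubular marker that passed in these comparisons rose, and a link to the selected genes was not tested. The counts stand beside 57.2% of all genes that passed in the knockout and 46.1% at 15 days. Of 9 tested Sertoli markers, 8 rose and 0 fell in the knockout (median 1.77), and 4 rose and 0 fell at 15 days (median 0.66). All 5 tested macrophage and leukocyte markers rose in the knockout (median 1.73), and at 15 days 2 rose and 0 fell (median 0.49), 1 of them, Lyz2, not past the threshold without replicate 2 or 4 (0.72 and 0.78). All 3 tested peritubular markers rose in both (medians 1.18 and 1.40), though Flna in the knockout, at 0.92, did not pass with 1 probe per gene (0.39, adjusted p 0.0909 by limma). The spermatid genes fell in both, 3 of 4 in each, with medians of -5.05 and -4.08. For the neutrophil, whose granules hold Lcn2, 3 of 16 listed markers had a probe. Mmp9, the 1 that was tested, was at 1.40 in the knockout and 0.67 at 15 days, and the latter did not pass without 15 day replicates 1, 3 or 4 (0.52 to 0.79). S100a9, a granule protein, was at 2.04 on the 1 knockout array with a value and at 0.75 over 3 arrays at 15 days. Ltf, lactoferrin, which is a granule protein and also a product of uterine epithelium, went the other way, at -0.13 on 1 knockout array and -1.16 over 3 arrays at 15 days, from -1.80 to -0.66. None of the 17 listed genes of epididymal epithelium had a probe.

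Ovary against testis was not used in the selection, and here the 4 genes parted. By limma's test, 3 of the 4 passed the adjusted p threshold of 0.05, beside 59.0% of all 4465 genes. Lcn2 was lower in ovary, Ces1d and Cyp2s1 were higher, and Ephx1 did not pass. Lcn2 was at -2.07, -1.96, -3.44 and -3.75, a mean of -2.81 ± 0.92 (SD, n = 4), or 6.99-fold lower with an adjusted p of 1.88e-07 by limma. It was below 0 on all 4 arrays. Cyp2s1 was at 2.06, 1.92 and 2.0 on the 3 arrays with a value, a mean of 1.99 ± 0.07 (SD, n = 3), or 3.98-fold higher with an adjusted p of 1.88e-06 by limma. Those arrays lay close together.

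Ces1d was at 1.26, 0.89 and 0.62 in ovary against testis, a mean of 0.92 ± 0.32 (SD, n = 3), or 1.90-fold, with an adjusted p of 0.0298 by limma. Though above 0 on all 3 arrays, it did not pass without replicate 2 (0.76, adjusted p 0.16 by limma) or replicate 3 (0.94, adjusted p 0.0856 by limma). Ephx1 was at 0.07, 0.31, -0.18 and -0.99, a mean of -0.20 ± 0.56 (SD, n = 4) with an adjusted p of 0.377 by limma. Its 95% interval ran from -0.59 to 0.19, and without replicate 4 it was at 0.07.

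Against the reference RNA, testis held more Lcn2, Ces1d and Ephx1 and less Cyp2s1. All 4 genes passed, beside 61.4% of all genes tested. Ces1d was at 4.11, 6.24, 3.61 and 4.31, a mean of 4.57 ± 1.15 (SD, n = 4), or 23.7-fold with an adjusted p of 1.56e-10 by limma, and was the 22nd highest of 4465 genes. Replicate 2 stood above the other arrays. Lcn2 was at 3.05, 3.07, 2.92 and 2.81, a mean of 2.96 ± 0.12 (SD, n = 4), or 7.79-fold with an adjusted p of 6.7e-08 by limma. This was the tightest of the genes in testis against the reference.

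Ephx1 was at 0.86, 0.85, 0.36 and 0.91 in testis against the reference, a mean of 0.75 ± 0.26 (SD, n = 4), or 1.68-fold with an adjusted p of 0.00164 by limma. It was above 0 on 4 of 4 arrays, with replicate 3 lowest. Cyp2s1 was at -1.0, -1.98 and -1.13 on 3 arrays, a mean of -1.37 ± 0.53 (SD, n = 3), or 2.58-fold lower with an adjusted p of 0.0001 by limma. All 3 arrays lay below 0.

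Ovary against the reference gave the fewest calls, 22.9% of all genes, and 2 of the 4 passed. Ces1d was at 4.68, 3.64, 4.66, 5.08 and 3.91, a mean of 4.39 ± 0.60 (SD, n = 5), or 21-fold with an adjusted p of 2.29e-10 by limma. It was the 3rd highest of 4465 genes, after Hsd3b1 at 6.14 and Cyp11a1 at 5.61, both enzymes of steroid synthesis. Cyp2s1 was at 0.66, 0.68, 1.73, 0.32 and 0.49, a mean of 0.78 ± 0.55 (SD, n = 5), or 1.71-fold with an adjusted p of 0.00579 by limma. It was above 0 on all 5 arrays, with replicate 3 apart from the rest.

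Lcn2 in ovary against the reference was at 0.07, -0.44, 0.99, -0.86 and 1.74, a mean of 0.30 ± 1.06 (SD, n = 5) with an adjusted p of 0.491 by limma. Arrays lay on both sides of 0, and the 95% interval ran from -0.29 to 0.89. That interval rests on 1 spread shared by all comparisons, and the SD here was 1.06, against 0.12 in testis over the reference. The interval, and the p-values of Lcn2 from ovary arrays, may thus understate the spread of those arrays. Ephx1 was at 0.52, 0.22, 0.76, -0.17 and 0.45, a mean of 0.36 ± 0.35 (SD, n = 5) with an adjusted p of 0.134 by limma. Its interval ran from 0.01 to 0.70, and 4 of 5 arrays were above 0. Without replicate 5 Lcn2 was at -0.06. With all arrays scaled to the same spread, Ephx1 was at 0.62 and passed (adjusted p 0.00662 by limma), Ces1d was at 7.21 and Cyp2s1 at 1.30.

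Ovary and testis were also compared through the reference, on arrays separate from the direct comparison, and 46.4% of all genes passed by limma. Lcn2 was lower in ovary by this route too, at -2.66 ± 0.43 (SE), or 6.33-fold with an adjusted p of 3.33e-05 by limma. Cyp2s1 was higher, at 2.15 ± 0.31 (SE), or 4.43-fold with an adjusted p of 2.51e-05 by limma. Neither Ces1d, at -0.17 ± 0.41 (SE, adjusted p 0.753 by limma), nor Ephx1, at -0.39 ± 0.25 (SE, adjusted p 0.212 by limma), passed. With all arrays scaled to the same spread Ces1d was at 3.23 by this route and passed (adjusted p 9.15e-07 by limma).

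The direct minus the indirect ratio was -0.14 ± 0.53 for Lcn2, -0.15 ± 0.39 for Cyp2s1 and 0.19 ± 0.31 for Ephx1 (SE). It was 1.10 ± 0.54 for Ces1d (SE), with an unadjusted p of 0.0556, an adjusted p of 0.999 by limma and a 95% interval from -0.03 to 2.22. Ces1d was thus above 0 in the direct ratio and near 0 in the indirect one, a difference that did not pass. With scaled arrays it was -2.42 (adjusted p 0.0245 by limma). By limma 0 of 4465 genes passed in this comparison (0.0%), 74 had an unadjusted p under 0.05, 1 gene passed with 1 value per channel order, and 30 passed with scaled arrays.

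The levels of each gene can be ordered through the wild type testis that stood on most arrays, although the labels do not say that it was the same RNA throughout. For Lcn2 the order was knockout testis, wild type testis, ovary, reference and 15 day testis. Ovary, at -2.81, and the reference, at -2.96 against testis, overlapped in the ranges of their arrays. Wild type testis is 0 by construction and has no range of its own, and every array of the knockout lay above it and every ovary array below it. For Ces1d the order was knockout testis, ovary, wild type testis, 15 day testis and reference. The place of ovary above testis comes from the direct arrays alone, where it did not pass without replicate 2 or 3, and through the reference ovary was at -0.17 (adjusted p 0.753 by limma). The arrays of the knockout lay above those of ovary, and those of the 15 day testis above those of the reference. The choice of Lcn2 and Ces1d used the knockout and 15 day arrays, so where those arrays lay is a description and no result. The reference stood at -4.57 against testis, below the 15 day testis at -2.76.

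For Ephx1 the knockout testis was highest and the 15 day testis lowest. Between them lay wild type testis, ovary at -0.20 and the reference at -0.75, where the arrays of ovary lay on both sides of testis and overlapped the reference. For Cyp2s1 the knockout was lowest instead. The order began with ovary at 1.99, then 15 day testis at 1.39 and the reference at 1.37, which overlapped each other. Wild type testis and the knockout at -0.64 followed. The highest reference array, at 1.98, also reached into the range of ovary. In the 4 genes, the knockout testis was at one end of the order each time. The 15 day testis was at the other end for Lcn2 and Ephx1. The choice of the genes favoured these places at the ends and the distance between knockout and 15 day testis, so they are no result.

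**Figure D3:**
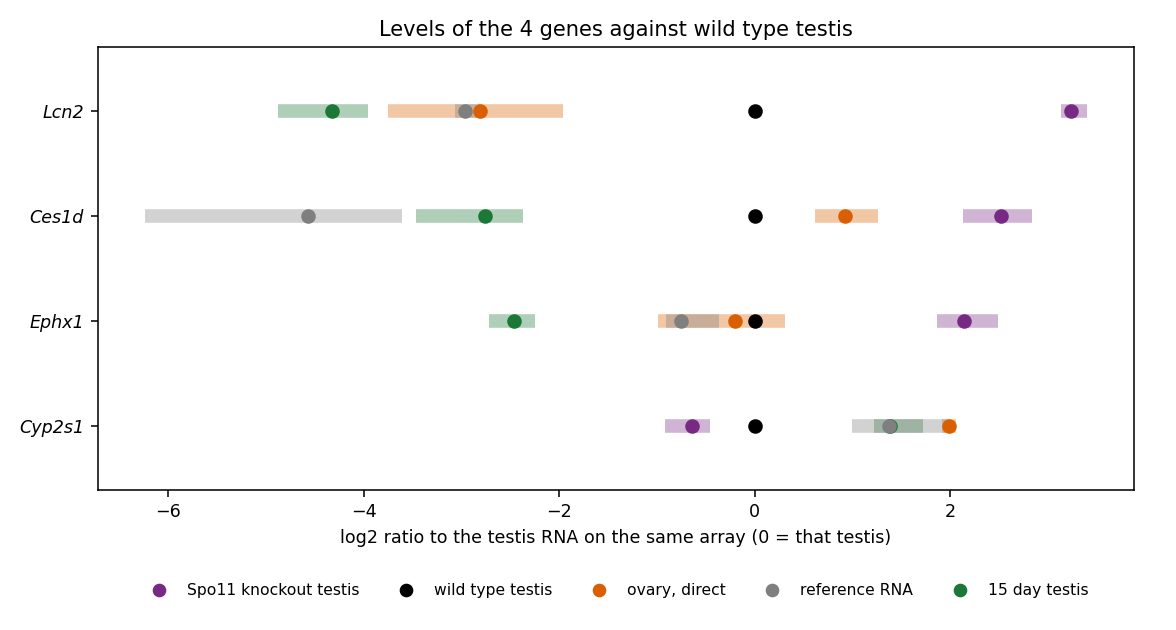
Level of each gene in 5 sources of RNA as the log2 ratio to the testis RNA on the same array (horizontal axis, 0 is that testis); points are means and bars run from the lowest to the highest array. The knockout lies at 3.24 for Lcn2, 2.52 for Ces1d and 2.14 for Ephx1 and at -0.64 for Cyp2s1, where ovary is highest at 1.99.

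The spread of Lcn2 in ovary followed the channel. In ovary against testis the mean was -2.02 with ovary in channel 1 and -3.60 with ovary in channel 2, a difference of 1.58. In ovary against the reference it was 0.93 and -0.65, again a difference of 1.58. Of all genes, 1.32% differed by more between channel orders in ovary against testis and 0.269% in ovary against the reference, where the median size was 0.35 and 0.28. The difference of Lcn2 was 0.05 in testis against the reference and -0.06 in the knockout. At 15 days, on arrays without ovary RNA, it was -0.55, which 13.6% of genes exceeded (median size 0.23). The difference between channel orders was thus larger in both ovary comparisons than in the others, which was not tested, and Lcn2 stayed below 0 in ovary against testis in either order.

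Ephx1 moved the same way with the channel, by 0.78 in ovary against testis and 0.55 in ovary against the reference, which 15.2% and 17.1% of genes exceeded. Ces1d in testis against the reference was at 3.86 with testis in channel 1 and 5.28 in channel 2. By the runs into which the array numbers fall, Ces1d there was at 3.96 in run 3, 4.11 in run 4 and 6.24 in run 5. Cyp2s1 there was at -1.13, -1.0 and -1.98 in the same runs. At 15 days, Lcn2 was at -4.42 in run 2 and -4.22 in run 5, and Ces1d at -2.45 and -3.07. The knockout arrays all lay in run 1, so that this comparison has no second run. For the genes and comparisons given by run above, the direction was the same in each run. It was not the same for Ephx1 in ovary against testis, at 0.07 in run 3, 0.07 in run 4 and -0.99 in run 5. Lcn2 in ovary against the reference was at -0.19, 0.99 and 0.44 in the same runs.

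Ces1f is the 1 other carboxylesterase of the Ces1 family with a probe. It lies in the same cluster of related genes on chromosome 8, and how far either probe reads its neighbours is not given in the sources used here. Ces1f was higher in ovary than in testis, at 1.06 ± 0.15 (SE, n = 4) in ovary against testis with an adjusted p of 3.44e-06 by limma. Ces1d, at 0.92 there, did not pass without replicate 2 or 3 and was at -0.17 through the reference. The other values of Ces1f lay far from those of Ces1d, a difference between genes that was not tested. In testis against the reference it was at -2.22 ± 0.15 (adjusted p 9.13e-11 by limma), and in ovary against the reference at -0.90 ± 0.13 (adjusted p 3.57e-05 by limma), where Ces1d was 4.57 and 4.39. In the knockout it was at 0.32, 0.14, -0.19 and 0.58 and at 15 days at -0.05, 0.33, 0.10 and 0.15, values on both sides of 0 that did not pass (adjusted p 0.23 and 0.48 by limma).

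**Figure D4:**
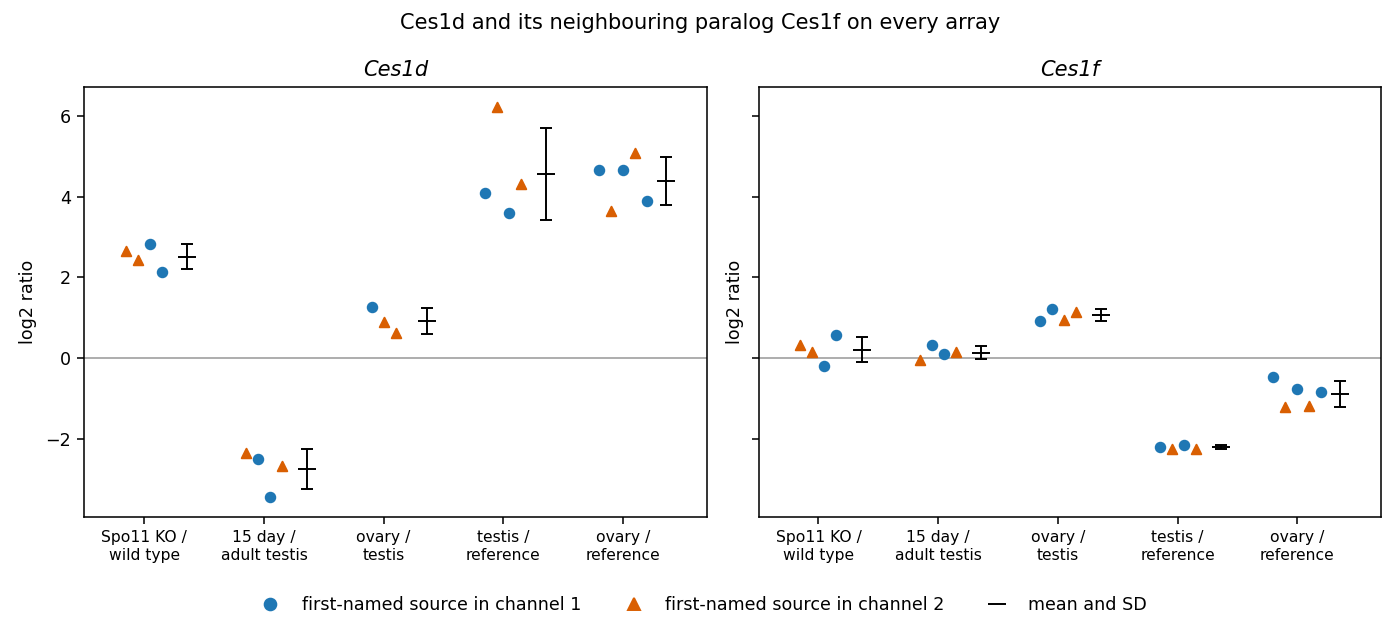
Log2 ratio (vertical axis) of Ces1d and Ces1f on every array by comparison (horizontal axis), with symbols for the channel of the first-named source and bars for the mean and SD. Ces1f lies near 0 in the knockout and at 15 days, where Ces1d is at 2.52 and -2.76, and at -2.22 in testis over the reference, where Ces1d is at 4.57.

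Of 24 listed carboxylesterases and other genes of lipid hydrolysis and storage, 5 had a probe and all 5 were tested. Of the 4 other than Ces1d, 0 rose and 2 fell in the knockout (median -0.52) and at 15 days (median -0.64). Among all genes, 57.2% passed in the knockout and 46.1% at 15 days. Pnpla2, the lipase that begins the breakdown of stored triglyceride, fell by 2.74 on the log2 scale in the knockout and by 3.01 at 15 days, and was at -2.42 in ovary against testis. Plin2, which coats lipid droplets, fell by 1.13 in the knockout and by 1.23 at 15 days. These 2 fell in both testes, unlike Ces1d. Lpl, the lipoprotein lipase, was at 0.08 and -0.05 and did not pass.

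The list of epoxide and conjugation enzymes had 16 of its 41 genes on the array and 12 tested. Among all genes, 57.2% passed in the knockout and 46.1% at 15 days. Of the 11 other than Ephx1, 5 rose and 2 fell in the knockout (median 0.99, against -0.04 for all genes), and 3 rose and 2 fell at 15 days (median 0.40, against -0.07). Of these, Gstp1 at 15 days, at 0.46, did not pass without any 1 of the 15 day arrays (0.40 to 0.48). Gsta4, a glutathione transferase for products of lipid peroxidation, rose by 2.30 ± 0.20 in the knockout and by 1.36 ± 0.23 at 15 days (SE). Gstm6 rose by 1.45 and 0.85. Gstm5, a transferase known from testis and brain, fell by 4.83 and 3.69, and was higher by 4.86 in testis than in the reference. Transferases of the mu class are related in sequence, and their probes may read one another. Gstm1 was at -1.88 in the knockout, and at 0.89 when a further probe of it with fewer values entered. Ephx2, the soluble epoxide hydrolase, had too few values for the test. Its mean was 1.15 on 2 knockout arrays, -0.06 at 15 days, and 3.27 in ovary against testis, where its 4 arrays ran from 0.13 to 4.97.

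The cytochrome P450 list had 12 of its 62 genes on the array and 6 tested. Of the 5 other than Cyp2s1, 3 rose and 0 fell in the knockout, and 1 rose and 3 fell at 15 days. The share of all genes that passed was 57.2% in the knockout and 46.1% at 15 days. Cyp11a1 and Cyp17a1 went with Lcn2, Ces1d and Ephx1, and not with Cyp2s1. Cyb5a, the cytochrome b5 that aids the lyase step of Cyp17a1, was at 1.84 ± 0.31 in the knockout (SE) and at 1.15 at 15 days, where it did not pass without replicates 1 or 3 (1.14 and 1.13). Aldh2, an aldehyde dehydrogenase, was at -0.67 at 15 days and did not pass without the same replicates (-0.64 and -0.52). Arnt, the partner of the aryl hydrocarbon receptor that induces Cyp2s1, was at -0.12 in the knockout and -0.18 at 15 days and did not pass.

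Around Lcn2, the lipocalin and iron list had 11 of 31 genes with a probe and 7 tested. Of the 6 other than Lcn2, 3 rose and 0 fell in the knockout, and 3 rose and 0 fell at 15 days. These counts are near the share of all genes that passed, 57.2% in the knockout and 46.1% at 15 days. Slc22a17, a receptor of Lcn2, rose by 1.11 in the knockout and by 0.85 at 15 days, and was higher in testis (1.48) and ovary (1.81) than in the reference. Ftl1, the ferritin light chain, rose by 2.21 and 0.75. Fth1, the heavy chain, rose by 1.23 in the knockout and was at 0.36 at 15 days. The receptor and ferritin genes did not fall at 15 days, where Lcn2 was lowest. Lrp2, another receptor of Lcn2, was at -0.66 and -0.35 and did not pass.

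Of 34 listed genes of the acute phase and NF-kB response, with which Lcn2 is known to be induced, 9 had a probe and 6 were tested. In the knockout, where 57.2% of all genes passed, 1 rose and 0 fell (median 0.47). It was B2m, the light chain of class I molecules, at 2.72 ± 0.25 (SE). Without knockout replicates 2 or 3 the count was 2. At 15 days, where 46.1% of all genes passed, 1 rose and 0 fell (median -0.01), again B2m, at 0.86 ± 0.25 (SE). Rela, a subunit of NF-kB, was at 0.33 in the knockout, Stat3 at 0.50, Socs3 at -0.29 and Nfkbia at 0.44, and none passed. Lbp, also of this list, was at 1.28 in the knockout and did not pass (adjusted p 0.0881 by limma). It was above 0 on 4 of 4 knockout arrays, from 0.64 to 1.79. At 15 days Lbp was at -0.16 and did not pass.

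Across arrays, Lcn2 and Ephx1 had the most similar pattern among the 4, with Pearson's r of 0.89 and Spearman's rho of 0.956 over 21 arrays. These correlations are descriptions: the arrays share sources of RNA, and 8 of them chose the genes. Lcn2 and Ces1d correlated at 0.777 (20 arrays), and Lcn2 and Cyp2s1 at -0.839 (17 arrays). Among all genes with at least 18 shared arrays, those most like Lcn2 were Ube2e3, a ubiquitin-conjugating enzyme (r = 0.916, 19 arrays), Cyp17a1 (0.903, 20 arrays) and Ephx1. Those most like Ephx1 were Lcn2, Ube2e3 (0.883) and Ppip5k1, an inositol pyrophosphate kinase (0.866).

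The genes most like Ces1d were Cyp11a1 (r = 0.94, 19 arrays), Smoc1, a matrix protein (0.927, 19 arrays), and Me1, the malic enzyme (0.919, 20 arrays). Cyp11a1 shared with Ces1d the high ratios to the reference, at 5.05 in testis and 5.61 in ovary. In ovary against testis they were less alike, with Cyp11a1 at 3.24 and Ces1d at 0.92. Cyp2s1 had too few values for that minimum. With at least 15 shared arrays, a limit chosen after seeing the data, those most like it were Hif1a (0.911, 15 arrays), Adgrf5 (0.869, 15 arrays) and Ipo9 (0.864, 16 arrays). Hif1a, the oxygen-regulated transcription factor, was at 1.76 in ovary against testis and -1.68 in testis against the reference, near the 1.99 and -1.37 of Cyp2s1, but at 0.50 at 15 days, where Cyp2s1 was at 1.39.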

How the data were processed

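The deposited values of the 21 arrays were read as log2 ratios between the RNA sources on an array. Neither the labels nor the file headers state the unit. The reading rests on values of both signs centred near 0, the largest of size 16.7. The scanner, dyes, background correction and normalization are not given in the sources used here, and intensities were not used, so dim probes could not be removed. The authors' centring differed: 15 arrays had a median of 0, and 6 (the knockout arrays and 15 day replicates 1 and 2) a median of up to 0.13 with a mean within 0.00345 of 0. An array held values for 6452 to 14012 of 16128 probes, and precision is limited by the small number of arrays.

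Each array was centred on its median. Probes with 1 gene symbol in the platform annotation (9604) and values on 3 or more arrays in every group were averaged by gene (4465 genes). The limma package (version 3.58.1, R 4.3.3) fitted 1 mean per comparison over all 21 arrays, sharing 1 estimate of the spread, with Benjamini-Hochberg adjustment over all genes; the fit was tested on simulated data. SDs are over arrays and SEs are from the fit, which leaves out missing values. Replicates were numbered in accession order and do not pair arrays. Promoters and chromosomes are from RefSeq on GRCm38.p6.

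The 4 genes, the gene and marker lists and the motifs were chosen with earlier results of these data known. The other genes named were those of largest size in a list, those with the highest correlation (3 for each of the 4 genes), the neighbours in the order of knockout minus 15 day values, the paralog Ces1f, and genes chosen after their values were seen (untested markers, Bhmt, Spice1 and single genes below the threshold). The splits by run and channel, and the lower minimum of shared arrays for Cyp2s1, were chosen after seeing the data. Alternatives covered centring, scaling, filters, probes per gene, channel, run and leaving out each array.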

Additional observations from a re-analysis of the deposited data

Results flagged for a closer look

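In 15 sets of 4 or 5 arrays, the highest and lowest array of each of the 4 genes was set against the rest, a check in which chance sets about 1 in 20 apart. Ephx1 in testis against the reference was at 0.36 on replicate 3, apart from the other 3 arrays at 0.85 to 0.91, with 0.891 of the range between it and the next array. Cyp2s1 in ovary against the reference was at 1.73 on replicate 3, with 0.745 of the range to the next array at 0.68. Without that array Cyp2s1 was at 0.54 there and still passed.

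For 2 genes the ratio to the reference differed between ovary and testis by a test of the difference itself. The ratio of Lcn2 was lower in ovary, at -2.66 on the log2 scale with an adjusted p of 3.33e-05 by limma. That of Cyp2s1 was higher by 2.15, with an adjusted p of 2.51e-05 by limma.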

How the results depend on the processing

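Each difference of Lcn2 and Cyp2s1 that passed the threshold kept its direction and passed under the alternatives run, and none of theirs that had not passed did so. With arrays scaled to the same spread, Ephx1 in ovary against the reference was at 0.62 and passed (adjusted p 0.00662 by limma). Ces1d through the reference was then at 3.23 (adjusted p 9.15e-07 by limma), and its direct minus indirect ratio at -2.42 (adjusted p 0.0245 by limma), both of the opposite sign. Scaling multiplied all values of an array by 1 factor, which enlarged the ratios of ovary against the reference (Ephx1 from 0.36 to 0.62). The indirect ratio of Ces1d is computed from such ratios, so both changes carry that factor. Cyp2s1 in ovary against the reference was then at 1.30. In the knockout Lcn2, Ces1d and Ephx1 were then at 2.83, 2.19 and 1.86, and at 15 days Lcn2 and Ephx1 at -5.01 and -2.82. Leaving out single arrays put Ces1d in ovary against testis between 0.76 and 1.08, not passing without replicate 2 or 3. Of all genes tested, between 2243 and 2674 then passed in ovary against testis, 2437 to 2628 in testis against the reference and 750 to 941 in ovary against the reference. With probes on all 21 arrays, which tests fewer genes, 1286, 1319 and 533 passed in these comparisons, against 2633, 2742 and 1024. In ovary against the reference 2056 passed with scaled arrays and 525 with 1 value per channel order. The direct minus the indirect ratio gave 30 calls with scaled arrays. The run of array numbers as a random block (correlation -0.0354) changed no call of the 4 genes. No paired analysis was possible because replicate numbers only follow accession order. Ces1d and Cyp2s1 lack values on some arrays and drop out where probes on all 21 arrays are required. Counts of calls in the gene lists, without the 4 genes in the testis comparisons that chose them, moved by over 1.5 times in 28 of 330 settings. Signal over background is unknown.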
